A study of Mus musculus with 12 samples.

Results

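The 10 genes described here are Fos, Fosb, Jun, Junb, Jund, Egr1, Egr2, Atf3, Ier2 and Nr4a1, immediate early genes that also rise when muscle is taken apart into single cells. They were chosen by symbol, and all 10 were found among the 30154 genes of the deposited tables and among the 15890 genes with enough counts to be tested. The libraries are bulk RNA sequencing of muscle stem cells from C57BL/6J mice aged 2 to 3 months, sorted by flow cytometry after the tibialis anterior, gastrocnemius and quadriceps muscles were minced and digested. Wild-type mice and mice lacking Sestrin1 and Sestrin2 were sampled before injury (day 0) and at days 7 and 21 after injury, with 2 libraries in each of the 6 groups and 12 in all. The labels do not give the kind of injury, the promoter or design of the knockout, the sex, or how many animals went into a library. Nothing in them says that the 2 libraries of a group came from separate mice, so p-values measure only the spread between these libraries, which may be technical. Every library went through the same digestion and sort according to the labels, and no library from undissociated muscle was analysed here, so no value below separates the RNA made during dissociation from the RNA present in the animal.

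Immediate early genes are transcribed within minutes of a stimulus and need no new protein synthesis to be switched on. Growth factors, stress and calcium reach their promoters through kinases of the MAP kinase and cAMP pathways, which act on the serum response factor with its ternary complex partners and on CREB. The products are mostly transcription factors: proteins of the Fos and Jun families pair through leucine zippers to form AP-1, Atf3 is a related leucine zipper protein induced by stress, Egr1 and Egr2 are zinc finger factors, and Nr4a1 is an orphan nuclear receptor. In muscle stem cells, which rest in the adult animal, enzymatic isolation is known to switch on these same genes, so their level in sorted cells is a usual measure of the isolation response.

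These pathways act on short elements in the sequence upstream of a gene. RefSeq promoters on GRCm38.p6 were matched by symbol and used for 8 of the 10 genes, all but Ier2 and Egr1. The window used is the 250 bases before the annotated start, searched on both strands for the cAMP response element TGACGTCA, its TGACG core outside a full element, the AP-1 site TGANTCA, and the CArG box bound by the serum response factor. Of the 8 promoters 6, all but those of Jun and Jund, held at least 1 such core, against 16.6% of 32851 promoters of the same length. None of the 8 held the full element (1.55% of all promoters) or an AP-1 site (6.75%), and 1, that of Egr2, held a CArG box (1.47%). The RefSeq start of Jund lies 1210 bases from that in GENCODE, so its window may not be the promoter in use. These are matches of letters, without a test, and they do not show that a factor was bound. The promoters of Fos, Nr4a1, Egr2 and Atf3 are shown because these genes moved most clearly between days or carried most of the matches. The TGACG cores and the CArG box are in capitals, and CGTCA is the core read on the other strand.
Fos, chr12:85473640-85473889, plus strand: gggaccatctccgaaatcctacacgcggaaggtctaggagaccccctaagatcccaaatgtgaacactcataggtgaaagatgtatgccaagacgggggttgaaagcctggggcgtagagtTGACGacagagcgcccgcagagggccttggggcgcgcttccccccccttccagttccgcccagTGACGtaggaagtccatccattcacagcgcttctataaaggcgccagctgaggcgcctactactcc
Nr4a1, chr15:101266596-101266845, plus strand: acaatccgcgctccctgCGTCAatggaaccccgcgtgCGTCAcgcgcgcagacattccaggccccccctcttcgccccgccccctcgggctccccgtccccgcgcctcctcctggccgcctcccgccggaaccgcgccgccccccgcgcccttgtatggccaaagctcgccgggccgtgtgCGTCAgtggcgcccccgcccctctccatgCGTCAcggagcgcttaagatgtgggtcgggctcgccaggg
Egr2, chr10:67537619-67537868, plus strand: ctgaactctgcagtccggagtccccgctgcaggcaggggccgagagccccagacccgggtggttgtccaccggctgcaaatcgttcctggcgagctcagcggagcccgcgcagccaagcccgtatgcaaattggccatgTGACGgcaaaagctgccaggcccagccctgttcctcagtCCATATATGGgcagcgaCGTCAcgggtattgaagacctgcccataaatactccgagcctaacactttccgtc
Atf3, chr1:191183334-191183583, minus strand: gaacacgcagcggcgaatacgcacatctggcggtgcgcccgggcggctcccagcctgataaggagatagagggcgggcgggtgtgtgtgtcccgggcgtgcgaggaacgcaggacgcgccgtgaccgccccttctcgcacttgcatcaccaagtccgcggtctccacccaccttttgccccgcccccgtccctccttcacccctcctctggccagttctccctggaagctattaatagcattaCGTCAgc
The cores in the Fos promoter begin 129 and 66 bases before the start, and the 1 of Atf3 begins 7 bases before it. The CArG box of Egr2 begins 72 bases before the start and lies between its cores, which begin at 111 and 55. Nr4a1 has 4 cores, all on the other strand, of which the nearest begins 40 bases before the start.

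The libraries held between 28396862 and 38950614 estimated counts. Sesn2, which the knockout should lack, lay at 75.1 and 84.3 CPM (a count scaled to the size of its library) for wild type against 5.47 and 7.03 for knockout on day 0, and went the same way on day 7. At day 21 it went against the labels of 2 libraries: replicate 1 labelled wild type was at 8.92 CPM and replicate 2 labelled knockout at 108.1, against 82.1 and 9.86 in the other 2. Genotype values for day 21 are therefore given by label and also without those 2 libraries, while comparisons of day 21 with other days use the mean of both genotypes. Among markers of muscle stem cells Myf5 was at 12.55 to 74.7 TPM (a level scaled to gene length as well as library size), Vcam1 at 50.6 to 274.5 and Pax7 at 3.1 to 19.2. Markers of other cells were present too: fibro-adipogenic markers summed to 5492 to 13823 TPM, above the 969 to 1770.2 of the 10 stem cell markers, and immune markers to 2031 to 3513 TPM at day 0, nearly all Lyz2, while Ptprc, which marks leukocytes, reached at most 3.5 TPM.

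All 10 genes were well expressed in every library. Fos was the highest of the 10 at each day, at 3395 to 5088 TPM at day 0, 1495 to 1922 at day 7 and 3152 to 4261 at day 21, which placed it between rank 10 and rank 51 of all genes. Junb followed, at 2029 to 2909 TPM at day 0, 1372 to 1522 at day 7 and 2362 to 3023 at day 21. Egr1, Atf3 and Nr4a1 shared the next place at day 0, with mean levels of 1428, 1265 and 1424 TPM over 4 libraries, then came Jun at 796, Ier2 at 770.04 and Jund at 574. Fosb and Egr2 were lowest, at 77.6 to 90.6 and 86.9 to 93.3 TPM at day 0, ranges that overlap. The summed level of the 10 was 11030.0 to 15174 TPM at day 0, 5809 to 6803 at day 7 and 11024 to 14767 at day 21. The day 7 libraries thus lie below all others in the summed level, and the ranges of days 0 and 21 overlap.

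**Figure D1:**
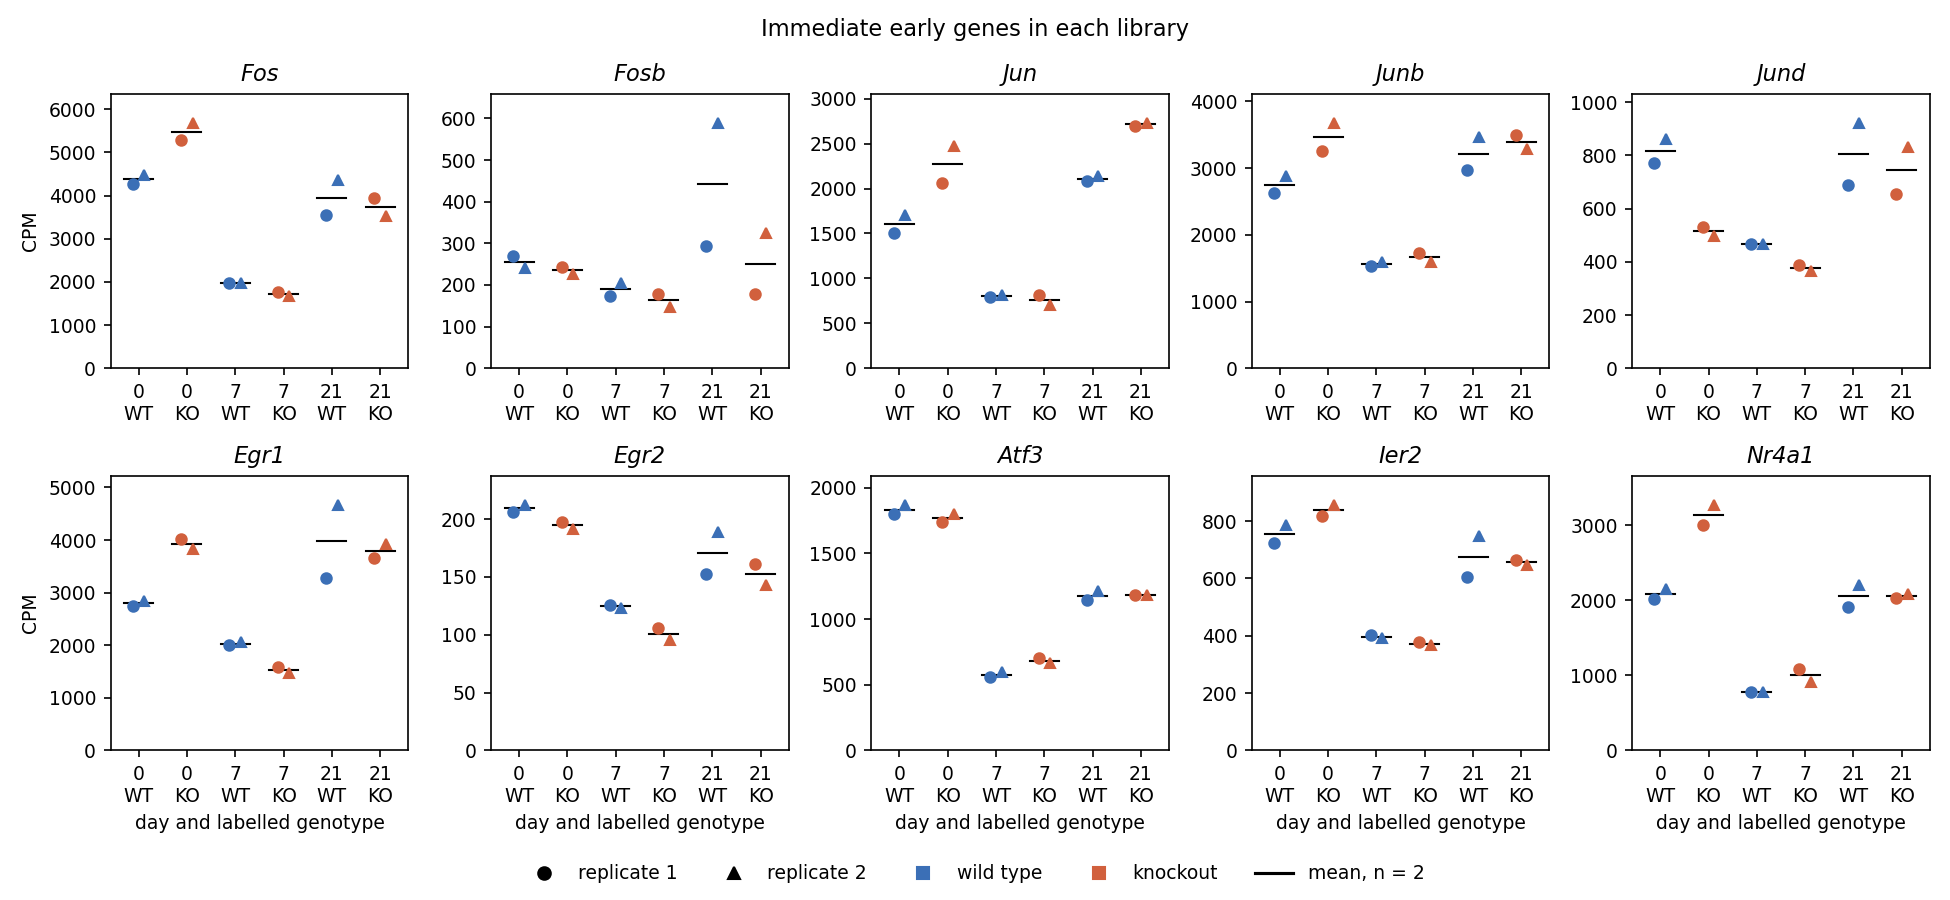
CPM of each of the 10 genes in the 12 libraries, by day and labelled genotype; circles are replicate 1, triangles replicate 2, and lines the mean of the 2 libraries, on axes that start at 0. In each panel the day 7 libraries are the lowest, except for Fosb, where 1 day 21 library at 177.2 CPM lies within the day 7 range.

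Day 7 was compared with day 0 in each genotype, and day 21 with both earlier days over both genotypes. With edgeR's quasi-likelihood test and Benjamini-Hochberg adjustment over all genes, a gene counts as called under an adjusted p of 0.05. In wild type 9 of the 10 fell, as did 21.2% of all tested genes, while 25.8% rose. In knockout 9 of 10 fell as well, where 22.2% of all genes fell and 24.7% rose. Fosb was the exception in both. The median change of the 10 on the log2 scale was -0.87 in wild type and -1.26 in knockout, against medians of 0.06 and 0.03 over all genes. In a fit of the 8 libraries of days 0 and 7 alone all 10 fell in both genotypes, where 54.0% and 54.2% of all genes were called in either direction. From day 7 to day 21 all 10 rose, against 28.4% of all genes, with a median of 0.98 against 0.01. Day 21 against day 0 was mixed: Fos, Egr2, Atf3, Ier2 and Nr4a1 were lower, against 20.8% of all genes, and Jun was higher, against 25.0%. These comparisons share libraries, so the fall to day 7 and the rise from it are not independent of each other. In bulk RNA, fewer cells of a type and less RNA per cell cannot be told apart.

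**Figure D2:**
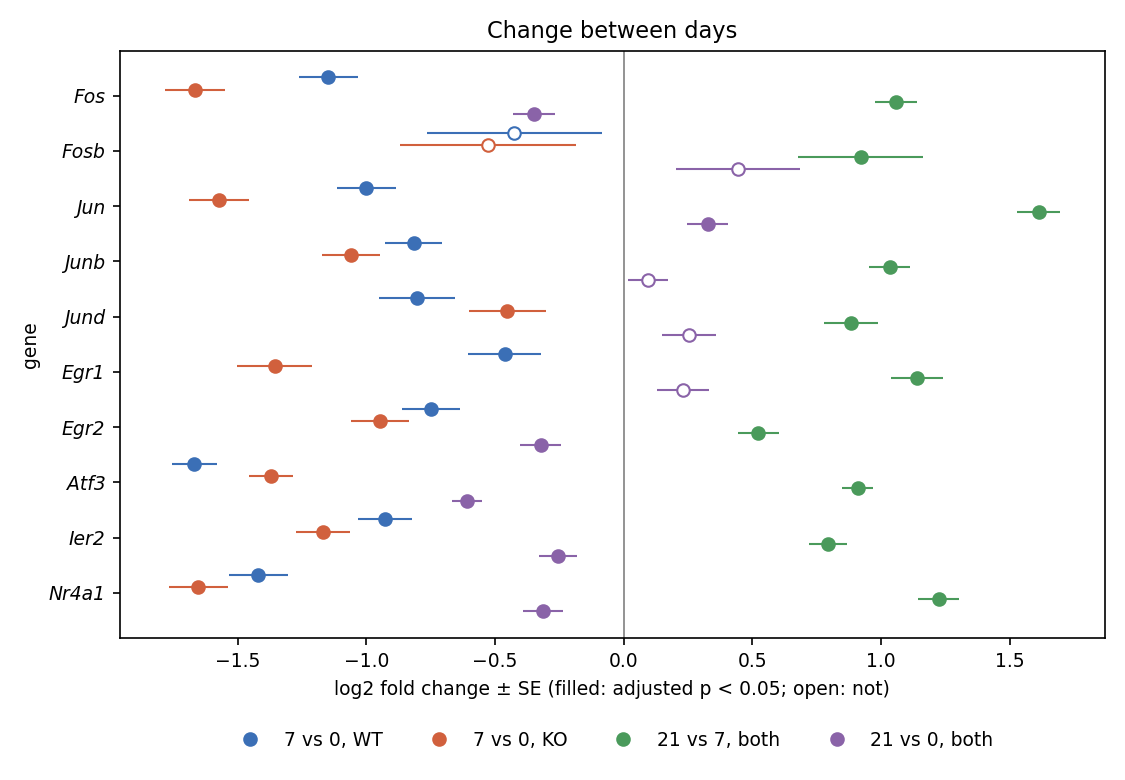
Log2 fold change with its standard error for each of the 10 genes in 4 comparisons of days; filled points had an adjusted p under 0.05 in edgeR. All points for day 7 against day 0 lie left of 0 and all for day 21 against day 7 lie right of it, while day 21 against day 0 runs from -0.61 for Atf3 to 0.44 for Fosb.

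Fos, the main partner of the Jun proteins in AP-1, was at 4280.1 and 4481 CPM for wild type and 5278 and 5685 for knockout on day 0. At day 7 it was at 1969 and 1984 for wild type and 1772 and 1680.5 for knockout. At day 21 those under the wild-type label had 3561 and 4352 and those under the knockout label 3952 and 3529.6 CPM. The day 7 libraries lie below all others, and those of day 21 reach into the range of day 0 only with the highest of them. Fos fell by 1.15 in wild type (SE 0.115, edgeR adjusted p 3.10e-05) and by 1.67 in knockout (SE 0.117, edgeR adjusted p 2.61e-06) on the log2 scale, which is 2.22-fold and 3.18-fold. It rose by 1.06 from day 7 to day 21 (SE 0.0814, edgeR adjusted p 3.12e-06) and ended 0.35 below day 0 on the log2 scale (edgeR adjusted p 0.00539).

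Fosb, whose protein can replace Fos in AP-1 and builds up under repeated stimulation in other tissues, was much lower and more variable. At day 0 it was at 270.2 and 240.3 CPM for wild type and 243 and 226 for knockout, and at day 7 at 175 and 206 for wild type and 178.1 and 148 for knockout. At day 21 it was at 294 and 589 CPM under the wild-type label and 177.2 and 325 under the knockout label. The replicates thus differed by 2.01-fold and 1.84-fold at day 21, more than those of any other member in any group. Its change to day 7 was -0.42 in wild type (SE 0.340, edgeR adjusted p 0.340) and -0.53 in knockout (SE 0.341, edgeR adjusted p 0.239), with no overlap between the days in either genotype, as for 79.6% of all genes in wild type and 76.1% in knockout. Without the day 21 libraries in the fit the adjusted p was 0.0076 and 0.00304. The rise from day 7 to day 21 was 0.92 (SE 0.242, edgeR adjusted p 0.0103). Of the summed TPM of Fos, Fosb, Fosl1 and Fosl2, Fos made 93.8% in wild type against 95.7% in knockout on day 0, and 89.8% and 88.6% at day 7.

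Jun, the founding Jun protein and a target of the JNK kinases, was at 1503 and 1704 CPM for wild type and 2066 and 2475 for knockout on day 0. It dropped to 791 and 813 for wild type and 820.1 and 707 for knockout on day 7. At day 21 it stood at 2079 and 2136 CPM under the wild-type label and at 2697 and 2730.4 under the knockout label. The genotypes overlap at day 7 and not at day 0, where 75.1% of all genes do not overlap. The day 21 values do not overlap between labels that Sesn2 contradicts for 2 of the 4 libraries, as for 38.0% of all genes. All day 7 libraries lie below those of the other days. Jun fell by 1.00 in wild type (SE 0.116, edgeR adjusted p 7.62e-05) and by 1.57 in knockout (SE 0.118, edgeR adjusted p 3.76e-06), and rose by 1.61 from day 7 to day 21, the largest rise among the 10 (edgeR adjusted p 3.57e-07). It was the only member called higher at day 21 than at day 0, by 0.33 (SE 0.0813, edgeR adjusted p 0.00821).

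Junb, a Jun protein that can restrain the activity of Jun, had 2624 and 2878 CPM for wild type and 3259 and 3676 for knockout on day 0, and between 1535 and 1733 in the 4 libraries of day 7. On day 21 it reached 2976 and 3458 CPM under the wild-type label and 3489 and 3279 under the knockout label. It fell by 0.82 in wild type and 1.06 in knockout (edgeR adjusted p 0.000214 and 3.34e-05) and rose by 1.03 to day 21 (edgeR adjusted p 2.95e-06), where it did not differ from day 0 beyond the threshold (0.10, SE 0.0778, edgeR adjusted p 0.348).

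Jund, the Jun protein that most resting cells express without a stimulus, had a different order of libraries. At day 0 wild type was at 773 and 861 CPM and knockout at 531 and 499, without overlap, as for 75.1% of all genes. At day 7 the values were 468 and 468 for wild type and 389 and 364 for knockout, and at day 21 they were 687 and 922 under the wild-type label and 655 and 833 under the knockout label. The day 0 knockout libraries lie just above the wild-type libraries of day 7. Jund fell by 0.80 in wild type (SE 0.149, edgeR adjusted p 0.00144) and by 0.45 in knockout (SE 0.148, edgeR adjusted p 0.0288). The knockout call was lost when any of the 4 libraries compared was left out, with adjusted p from 0.0553 to 0.131. From day 7 to day 21 Jund rose by 0.88 (SE 0.105, edgeR adjusted p 5.05e-05). In TPM, Junb made 61.3% of the 3 Jun RNAs in wild type against 66.4% in knockout on day 0, Jun 18.6% and 22.7%, and Jund 20.1% and 10.9%. At day 7 the share of Jund was 20.7% in wild type and 16.8% in knockout.

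Atf3, which can repress or activate through AP-1 and CRE sites and is a classic gene of the stress response, had the smallest spread of the 10, as a ratio of highest to lowest, over the day 0 libraries, with 1800, 1868, 1736 and 1799 CPM in wild-type replicates 1 and 2 and knockout replicates 1 and 2. At day 7 it was at 556 and 598 for wild type and 703 and 664 for knockout. All 4 libraries of day 21 lay between 1146 and 1210 CPM, below every day 0 library and above every day 7 library. Of all genes, 30.6% did not overlap between days 21 and 0 and 46.4% did not between days 21 and 7. In wild type Atf3 fell by 1.67 (SE 0.0860, edgeR adjusted p 7.77e-07), the largest fall of the 10 there, and in knockout by 1.37 (SE 0.0853, edgeR adjusted p 1.26e-06). It rose by 0.91 to day 21 (SE 0.0598, edgeR adjusted p 1.25e-06) and stayed 0.61 below day 0 (SE 0.0595, edgeR adjusted p 3.16e-05), a 1.53-fold lower level.

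Egr1, a zinc finger factor that answers to MAP kinase signals, was at 2752 and 2836 CPM for wild type and 4016 and 3831 for knockout on day 0. The order turned at day 7, with 1997 and 2058 for wild type and 1586 and 1479 for knockout. At day 21 it was at 3284 and 4665 CPM under the wild-type label and 3663 and 3919 under the knockout label, so that the wild-type label holds both the lowest and the highest library. Egr1 fell by 0.46 in wild type (SE 0.143, edgeR adjusted p 0.0219) and by 1.36 in knockout (SE 0.145, edgeR adjusted p 3.71e-05). The wild-type call was lost when any of the 4 libraries compared was left out, with adjusted p from 0.0617 to 0.110. It rose by 1.14 from day 7 to day 21 (SE 0.102, edgeR adjusted p 7.67e-06).

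Egr2, known for its part in myelination and in lymphocytes, was low, with 206 and 212 CPM for wild type and 198 and 191 for knockout on day 0, 126 and 123 for wild type and 106 and 95.8 for knockout on day 7, and 143 to 189 at day 21. The days do not overlap at any step. Between days 0 and 7 this held for 79.6% of all genes in wild type and 76.1% in knockout. It held for 46.4% between days 7 and 21 and for 30.6% between days 0 and 21. It fell by 0.75 in wild type and 0.95 in knockout (edgeR adjusted p 0.000405 and 7.81e-05) and rose by 0.52 to day 21, the smallest rise of the 10 (SE 0.0795, edgeR adjusted p 0.000257). Egr2 ended 0.32 below day 0 on the log2 scale (edgeR adjusted p 0.00744).

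Nr4a1, a nuclear receptor with no known natural ligand that is switched on in activated cells, was at 2012 and 2147 CPM for wild type and 3009 and 3271 for knockout on day 0. At day 7 it was at 772 and 783 for wild type and 1086 and 910.1 for knockout, and at day 21 all 4 libraries lay between 1912 and 2207. It fell by 1.42 in wild type (SE 0.114, edgeR adjusted p 7.71e-06) and by 1.65 in knockout (SE 0.115, edgeR adjusted p 2.41e-06). It rose by 1.22 to day 21 (SE 0.0801, edgeR adjusted p 1.24e-06) and ended 0.31 below day 0 (edgeR adjusted p 0.00867).

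Ier2, a small nuclear protein induced together with the AP-1 genes, was at 724 and 785 CPM for wild type and 819 and 856 for knockout on day 0, at 402 and 391 for wild type and 377 and 369 for knockout on day 7, and at 605 to 747 at day 21. It fell by 0.93 in wild type and 1.17 in knockout (edgeR adjusted p 6.43e-05 and 1.20e-05) and rose by 0.79 to day 21 (edgeR adjusted p 9.89e-06). Its lower level at day 21 than at day 0, 0.26 on the log2 scale (edgeR adjusted p 0.0166), was lost without replicate 2 of either genotype at day 0 (0.0572 to 0.0703). For day 21 against day 0, Fosb (0.44), Jund (0.25) and Egr1 (0.23) had edgeR adjusted p of 0.166, 0.0709 and 0.0872. Egr1 was called higher without the day 21 replicate 1 that carries the wild-type label (0.000961), and so were Fosb and Jund without replicate 1 of either label (0.0286 and 0.0468 for Fosb, 0.00948 and 0.0220 for Jund). Without both libraries that go against their labels 9 members were called there, where 41.2% of all genes were, and Junb was the one not called.

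The knockout was compared with the wild type on each day. At day 0, 4 members were higher in knockout (Jun, Junb, Egr1 and Nr4a1), against 14.8% of all genes, and 1, Jund, was lower, against 12.6%. Nr4a1 was higher by 0.59 in log2 units (SE 0.112, edgeR adjusted p 0.00423), a 1.51-fold difference that was called with each of the 12 libraries left out in turn. Jun was higher by 0.50 (SE 0.115, edgeR adjusted p 0.0104) and Egr1 by 0.49 (SE 0.143, edgeR adjusted p 0.0288). Junb was higher by 0.33, close to the threshold (SE 0.110, edgeR adjusted p 0.0462). Jund was lower by 0.67 (SE 0.149, edgeR adjusted p 0.00925), so the 3 Jun genes did not move one way. Fos stood at 0.32 (SE 0.114, edgeR adjusted p 0.0587) with no overlap between the genotypes, as for 75.1% of all genes. Egr2, Atf3, Fosb and Ier2 differed from the wild type by at most 0.151, with edgeR adjusted p from 0.313 to 0.838.

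Leaving out single libraries changed several of the day 0 calls. Junb was lost when any 1 library of day 0 or day 7 was left out (adjusted p 0.0526 to 0.269) and Egr1 when any 1 of day 0 was (0.0936 to 0.136). Jun was lost without wild-type replicate 1 or knockout replicate 2 of day 0 (0.102 to 0.107), and Jund without replicate 2 of either genotype (0.0681 to 0.0766). Fos was gained when any library of day 21 was left out (0.0122 to 0.0433), and was also called with the 8 libraries of days 0 and 7 alone (edgeR adjusted p 0.00382), which call 38.9% of all genes. Other RNA moved with genotype at day 0 as well: Krt14, a keratin of skin, was at 56.8 and 64.0 TPM in wild type and 0 in both knockout libraries, summed red blood cell markers were at 3121 and 3128 TPM for wild type and 782 and 742 for knockout, and Lyz2 of myeloid cells at 2027 and 2043 against 3509 and 3401. Mural and Schwann cell markers summed to 539 and 562 TPM for wild type against 763 and 784 for knockout. Of these 5 markers 2 had a higher and 3 a lower value in knockout (median -0.06). Endothelial markers summed to 80.4 and 71.7 TPM against 118 and 119.99, and fibro-adipogenic markers to 7827 and 7695 against 5492 and 5509. Of the 5 immune markers tested, Lyz2 included, none was called between genotypes there, and 3 had a lower value in knockout (median -1.08). Of 10 muscle stem cell markers 7 were called lower and 1 higher in knockout, against 12.6% and 14.8% of all genes. Vcam1 was at 115 and 112 TPM for wild type and 54.4 and 50.6 for knockout. The sum of the 10 was 995 and 969 TPM for wild type against 991 and 975 for knockout. The part of all these markers in the differences of the immediate early genes was not tested.

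At day 7 no member was called between genotypes by edgeR, with 1.76% of all genes called. An unadjusted p under 0.05 was reached by 4 members and 14.3% of all genes, and DESeq2 called 2 members and 4.95% of all genes. The genotypes did not overlap in 8 of the 10 members, as in 47.4% of all genes. In the 8 libraries of days 0 and 7 alone 5 members were called, where 7.46% of all genes were: Egr1 (-0.41, edgeR adjusted p 0.00418), Egr2 (-0.30, 0.0242) and Jund (-0.32, 0.0275) were lower in knockout, and Nr4a1 (0.36, 0.0346) and Atf3 (0.24, 0.0488) higher. In the fit of all 12 libraries the differences had nearly the same size, -0.40 for Egr1 and 0.36 for Nr4a1, and adjusted p of 0.220 and 0.162. There Egr2 was at -0.30, Jund at -0.31 and Atf3 at 0.24, with edgeR adjusted p from 0.207 to 0.382. Fos (-0.20), Fosb (-0.22), Jun (-0.07), Junb (0.09) and Ier2 (-0.09) had edgeR adjusted p from 0.494 to 0.856.

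At day 21, by label, no member was called by edgeR or DESeq2, with 0.0126% of all genes called by edgeR and 2.96% by DESeq2. The 2 members at an unadjusted p under 0.05 stand beside 14.2% of all genes. Fosb was at -0.81 (SE 0.341, edgeR adjusted p 0.332) and Jun at 0.36 (SE 0.115, edgeR adjusted p 0.221). Fos (-0.08), Junb (0.07), Jund (-0.11), Egr1 (-0.07), Egr2 (-0.17), Atf3 (0.01), Ier2 (-0.04) and Nr4a1 (-0.00) had edgeR adjusted p from 0.539 to 0.995. Without the 2 libraries that go against their labels, which leaves 1 library of each genotype that is assumed to vary like the other groups, 3 members were called lower in knockout, where 7.29% of all genes were called. They were Fosb (-1.72, edgeR adjusted p 0.00111), Jund (-0.49, 0.0199) and Egr1 (-0.34, 0.0388).

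**Figure D3:**
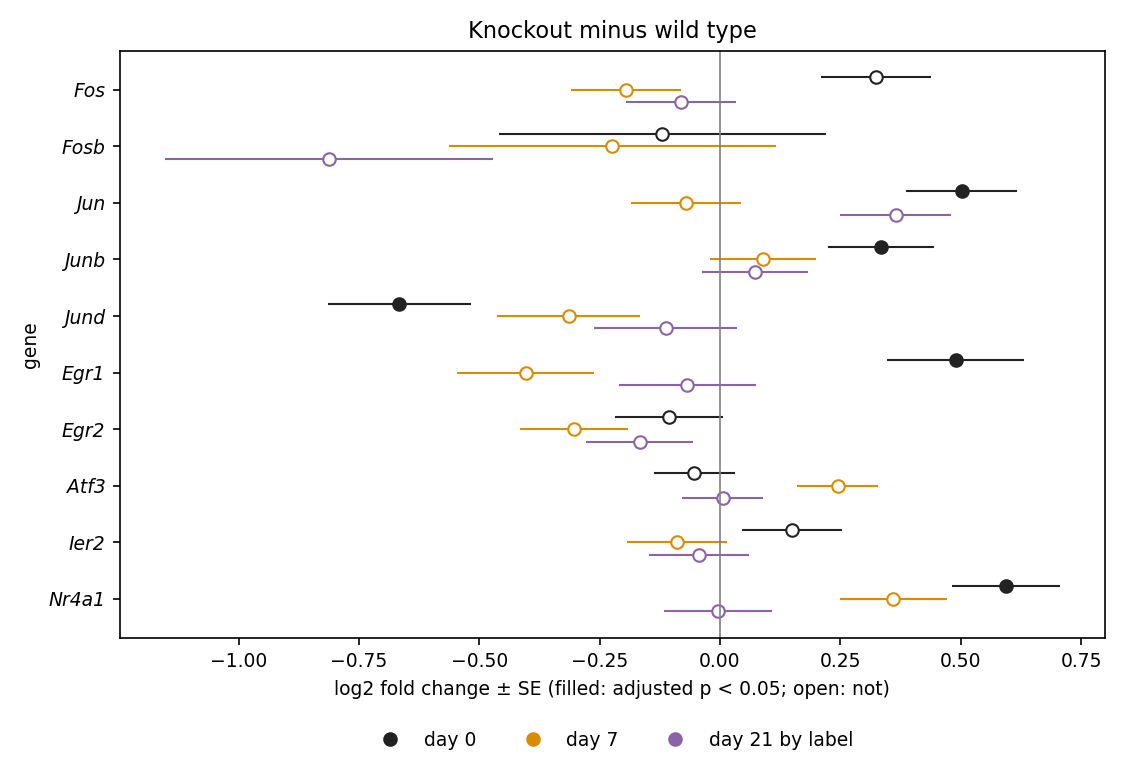
Log2 fold change of knockout against wild type with its standard error for each of the 10 genes at days 0, 7 and 21 by label; filled points had an adjusted p under 0.05 in edgeR. The 5 filled points are all of day 0, and Egr1 lies at 0.49 at day 0 and at -0.40 at day 7.

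The change to day 7 was also compared between genotypes. Egr1 fell more in knockout, by 0.89 in log2 units (SE 0.202, edgeR adjusted p 0.02001), and so did Jun, by 0.57 (SE 0.163, edgeR adjusted p 0.0435), against 7.39% of all genes with such a difference and 13.5% with one in either direction. The Egr1 call was lost in 7 of the 12 fits that leave out 1 library, namely when any 1 library of days 0 and 7 was left out other than knockout replicate 1 of day 7 (adjusted p 0.0596 to 0.0743). The Jun call was lost in 6, namely when any 1 of them was left out other than the replicate 1 knockout libraries of both days (0.0763 to 0.173). Fos, at -0.52 (SE 0.161, edgeR adjusted p 0.0597), was called when any day 21 library was left out (0.0134 to 0.0437). Junb (-0.24), Egr2 (-0.20), Ier2 (-0.24), Nr4a1 (-0.23), Fosb (-0.10), Jund (0.35) and Atf3 (0.30) were not called, with edgeR adjusted p from 0.1247 to 0.927. With the 8 libraries of days 0 and 7 alone, where 24.8% of all genes were called, 5 members were: Egr1, Fos and Jun fell more in knockout (-0.88, -0.50 and -0.56), and Jund and Atf3 fell less (0.37 and 0.31).

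Genes that work with the 10 were described by lists, whose counts stand against shares over all tested genes of 21.2% falling and 25.8% rising in wild type, 22.2% and 24.7% in knockout, and 28.4% rising from day 7 to day 21. No test compared the lists with each other or with all genes. Of 40 other immediate early genes 26 fell and 4 rose to day 7 in wild type, with a median of -0.52, and 27 fell and 2 rose in knockout, with a median of -0.64. From day 7 to day 21, 33 rose and none fell (median 0.73). Gadd45b, of the growth arrest and DNA damage family, fell by 2.21 in wild type and 1.40 in knockout (edgeR adjusted p 2.54e-07 and 8.45e-07) and rose by 1.11 to day 21. Nr4a2, the nearest relative of Nr4a1, fell by 1.75 in wild type and 1.53 in knockout, and was higher in knockout by 0.74 at day 0 and 0.95 at day 7 (edgeR adjusted p 0.00287 and 0.00790). Nfkbiz fell by 1.34 in wild type and rose by 1.75 to day 21, and Ier3 fell by 1.76 in wild type. At day 0, 5 genes of this list were higher and 5 lower in knockout, close to the 14.8% and 12.6% of all genes. Among them Gadd45g (0.56) and Socs3 (0.54) were higher and Maff (-0.64) lower. In the 8 libraries of days 0 and 7 alone 10 were higher and 5 lower, where 38.9% of all genes were called.

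Feedback regulators are induced with the response and switch it off. Of 14, 9 fell and 1 rose in wild type (median -0.40), 8 fell and 1 rose in knockout (median -0.59), and 10 rose and 1 fell from day 7 to day 21 (median 0.60). Nfkbia, the inhibitor of NF-kappaB, fell by 1.56 in wild type and 0.80 in knockout and rose by 1.25. Dusp1, a phosphatase of stress kinases, fell by 0.74 and 0.86 and rose by 0.83, and Zfp36, which destabilises AU-rich mRNAs, fell by 1.44 in wild type (edgeR adjusted p 0.00281).

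Heat shock genes formed another list. In wild type 12 of 14 fell and 1 rose to day 7 (median -0.85). In knockout 7 fell and 2 rose (median -0.43), and 10 fell and 2 rose in the 8 libraries of days 0 and 7 alone. From day 7 to day 21, 10 rose and 2 fell (median 0.58). Hspa1a fell by 2.85 in wild type and 2.27 in knockout (edgeR adjusted p 6.55e-06 and 1.69e-05) and rose by 2.16, and Hspa1b fell by 2.65 and 1.95 and rose by 2.02. These copies are near identical, so the split of reads between them is uncertain. Hspd1, of the mitochondrial chaperonin, rose by 0.64 in knockout. At day 0, 13 of the 14 had a lower value in knockout (median -0.24). Of the 10 immediate early genes described here 6 had a higher and 4 a lower value there (median 0.24). Among the 14 heat shock genes 4 were called lower and none higher, against 12.6% of all genes called lower. In the 8 libraries of days 0 and 7 alone 8 were called lower, where 38.9% of all genes were called in either direction. Hspe1, the partner of Hspd1, was lower by 1.00 (edgeR adjusted p 0.00254) and the cochaperone Dnajb1 by 0.49 (edgeR adjusted p 0.00589). The change to day 7 was more positive in knockout for 13 of the 14 (median 0.51), a comparison that shares the day 0 libraries. It was called for Hspe1 (0.96), Dnajb1 (0.51) and Hspb1 (0.56, edgeR adjusted p 0.0424), against 6.08% of all genes called in that direction. In the 8-library fit it was called for 11 of the 14, where 24.8% of all genes were called in either direction.

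Kinases and factors that act above the immediate early genes, and proteins that pair with AP-1, formed the other lists. Of 18 upstream regulators 5 rose and 1 fell in wild type (median 0.17) and 3 rose and 4 fell in knockout (median -0.17), and from day 7 to day 21, 7 rose and 3 fell (median 0.16), so the rises in wild type and the falls in knockout lie near the shares of all genes. Crem, a CREB relative that is itself inducible, fell by 1.32 in wild type and 0.83 in knockout (edgeR adjusted p 4.76e-05 and 0.000773). Mapk14, the p38 alpha kinase, was higher in knockout by 0.63 at day 0 (edgeR adjusted p 0.000974), and its change to day 7 differed between genotypes by -0.71 (edgeR adjusted p 0.00626). Of 10 dimer partners of AP-1, 3 rose and 4 fell in wild type, 1 rose and 2 fell in knockout, and 5 rose and 1 fell from day 7 to day 21, with medians of -0.36, 0.01 and 0.35. Mafk, a small Maf protein, fell by 1.19 in wild type and 1.29 in knockout and rose by 1.64 to day 21 (edgeR adjusted p 7.93e-07).

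**Figure D4:**
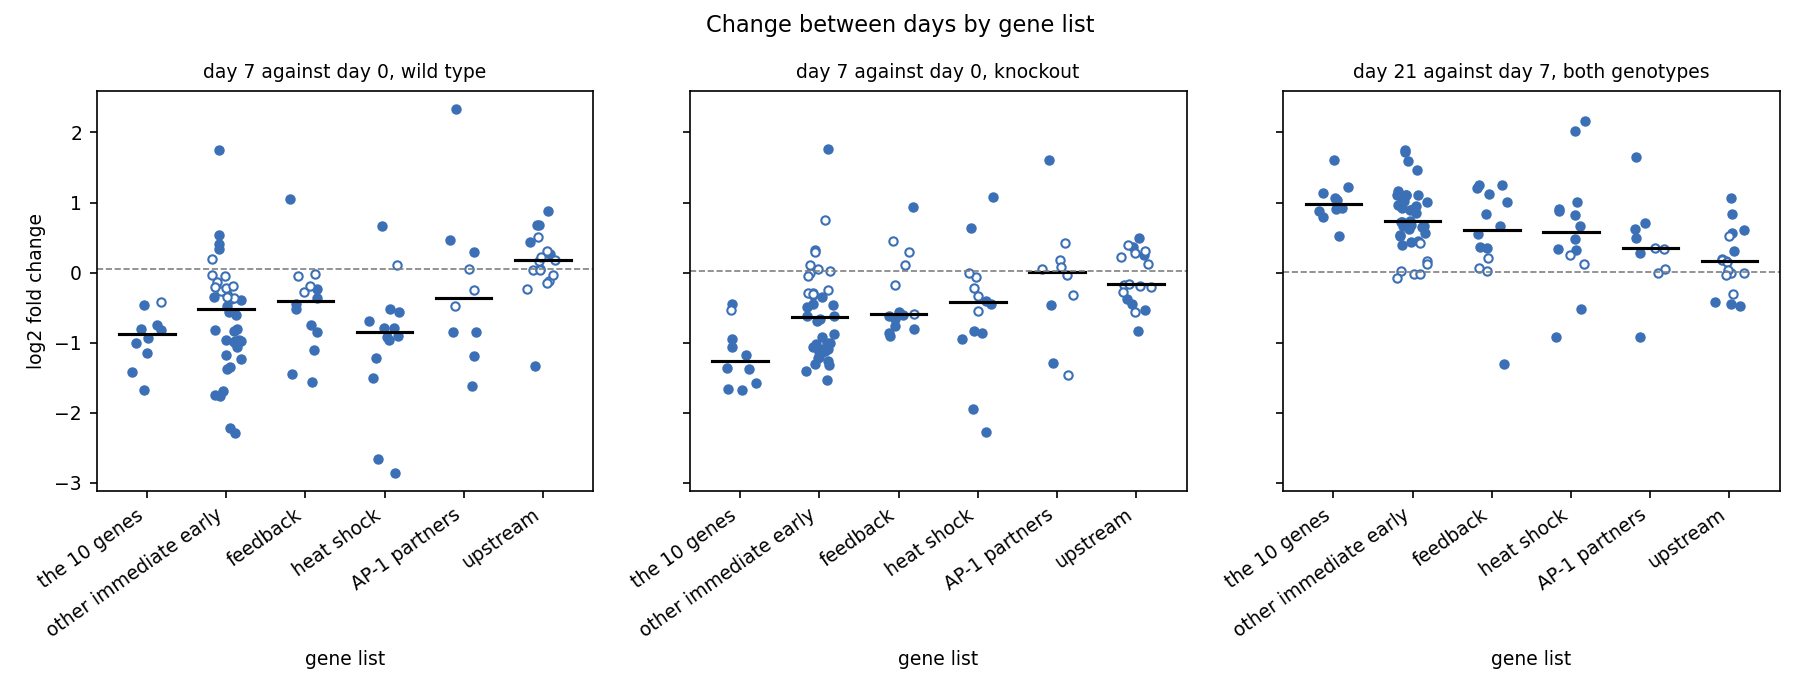
Log2 fold changes of the genes of 6 lists in 3 comparisons of days; each point is a gene, filled where its adjusted p in edgeR was under 0.05, bars are list medians, and the dashed line is the median of all tested genes. The medians of the 10 genes (-0.87, -1.26 and 0.98) lie farthest from the dashed line in each panel, and those of the upstream regulators (0.17, -0.17 and 0.16) lie near it.

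Markers of other cells moved with the days too. Of all tested genes 21.2% fell and 25.8% rose to day 7 in wild type, and 22.2% fell and 24.7% rose in knockout. From day 7 to day 21, 28.4% rose and 28.4% fell. Summed over 6 muscle fibre markers the level was 60.0 to 94.2 TPM at day 0, 1654 to 3463 at day 7 and 224 to 511 at day 21, with all 6 higher at day 7 in both genotypes. The 7 immune markers in the table, nearly all of it Lyz2, went from 2031 to 3513 TPM at day 0 to 337 to 501 at day 7 and 708 to 1016 at day 21, while Ptprc was at or near 0 at day 0. Of the 5 immune markers tested, 3 in wild type and 4 in knockout rose to day 7, and 1, Lyz2, fell in both. Mural and Schwann cell markers summed to 539 to 784 TPM at day 0, 152 to 208 at day 7 and 297 to 412 at day 21. Of these 5 markers 1 rose and 3 fell to day 7 in each genotype, and 3 rose and 1 fell from day 7 to day 21. Fibro-adipogenic markers summed to 5492 to 7827, 11780.4 to 13823 and 8818 to 12480.0 TPM. Of these 6 markers 3 rose and 1 fell to day 7 in each genotype, and 2 rose and 3 fell from day 7 to day 21. Endothelial markers summed to 71.7 to 120.0, 45.8 to 130.2 and 98.9 to 144 TPM, and skin markers to 31.3 to 202, 12.45 to 32.1 and 67.6 to 165. Of the 5 skin markers 4 fell to day 7 in wild type. In knockout 1 was called higher and 1 lower, while 4 had a higher value at day 7 (median 6.02). In both knockout libraries of day 0, 3 of the 5 were at 0 TPM. Red blood cell markers summed to 742 to 3128, 329 to 1073 and 1328 to 3552 TPM: all 5 fell to day 7 in wild type (median -2.29), 1 of 5 did in knockout (median -0.49), and all 5 rose from day 7 to day 21 (median 1.76). The 10 muscle stem cell markers summed to 969 to 995 TPM at day 0, 1159 to 1247 at day 7 and 1431 to 1770.2 at day 21. Of these, 5 rose and 2 fell to day 7 in wild type, and 6 rose and 2 fell in knockout. From day 7 to day 21, 5 rose and 4 fell. The part of these changes in the fall and rise of the immediate early genes was not tested.

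The 10 genes were compared with each other by the root mean square difference of their centred log2 CPM from the median profile of the 10 over the 12 libraries, a description whose values share the same libraries. Ier2 (0.0879) and Junb (0.124) followed the median profile most closely, and Fosb (0.427), Jund (0.326) and Jun (0.320) least. Outside the list the 5 genes nearest to it were Ppip5k1 (0.121), Rnf167 (0.128), Cyp2d22 (0.128), Ccnl1 (0.128) and Irf1 (0.136). Ccnl1, a cyclin that takes part in splicing, was at 1108 to 1136 CPM at day 0, 578 to 631 at day 7 and 1005 to 1098 at day 21. Irf1, an interferon regulatory factor that is also on the list of other immediate early genes, was at 932 to 1040 CPM (1039.6 at most), 467 to 523 and 812 to 985. Replicates of the 10 differed by a median of 1.03-fold to 1.08-fold in 5 groups and by 1.23-fold under the wild-type label at day 21. All 10 were higher in replicate 2 in that group, 9 of 10 were in wild type at day 0, and all 10 were higher in replicate 1 in knockout at day 7.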

How the data were processed

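Muscle stem cells were sorted into Trizol, cDNA was made from total RNA with the SMART-Seq v4 protocol and libraries with Nextera XT, and 76-base single-end reads were taken, per the labels' protocols. The authors deposited estimated counts per gene, not normalised, and a table of TPM for the same genes, per the file headers. The authors also deposited regularised log values on the log2 scale, corrected for a batch that neither labels nor headers name. The submitters' processing notes list kallisto 0.46.1 and the builds mm10 and GRCm38.p6. TPM summed to between 874221 and 883224 per library.

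Estimated counts were rounded to whole numbers and filtered with filterByExpr of edgeR 4.0.16 on the 6 groups. TMM factors lay between 0.915 and 1.09. Its robust quasi-likelihood test used one mean per group over the 12 libraries, and p-values were adjusted by Benjamini-Hochberg over 15890 genes. CPM use TMM-scaled totals. For log2 CPM the prior count was 2. Levels of different genes were compared in TPM. The standard error is the log2 fold change over the square root of F. Total counts of 28396862 to 38950614 leave at least 2951 counts per member and library, so the spread between libraries limits precision more than counting does. Replicates of a group differed by more than sampling noise (chi-square per degree of freedom from 8.87 to 107).

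The members, the lists and the tests were chosen with earlier results of these data known. All 10 members are named in every comparison, with Sesn2, called genes of the lists (from the first 4 of a list by adjusted p within each comparison), markers of cell types and the 5 genes most like the median profile. Alternatives were DESeq2 1.42.0, its size factors, other filters on low counts, a replicate block, limma 3.58.1 on log2(TPM + 1), log2(TPM + 0.1) and the rlog values, a minimum log2 fold change of 1, fits on fewer libraries, and each library left out. A crossed replicate block and the list counts in fits on fewer libraries were added after seeing the data. The scripts were tested on simulated counts. Protein sequences were not used here, so a planned comparison of them was not made. Analyses ran in R 4.3.3 and Python 3.11.15 with matplotlib 3.10.9.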

Additional observations from a re-analysis of the deposited data

Results flagged for a closer look

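The fall of Egr1 from day 0 to day 7 differed between genotypes by -0.89 in log2 units (SE 0.202, edgeR adjusted p 0.02001, and 0.000348 to 0.0743 among the alternatives), by a test of the difference itself. Egr1 was higher in knockout than in wild type in 2 of 2 libraries at day 0 and lower in 2 of 2 at day 7. The genotypes did not overlap in 75.1% of all genes at day 0 and in 47.4% at day 7. The fall of Jun differed by -0.57 (SE 0.163, edgeR adjusted p 0.0435, and 0.00851 to 0.173 among the alternatives), with Jun higher in both knockout libraries of day 0 and the genotypes overlapping at day 7.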

How the results depend on the processing

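The number of the 10 genes called moved with the settings. At day 7 between genotypes (0 in the 12-library fit) the count was 2 with DESeq2, 1 with only the libraries compared, 5 with the 8 libraries of days 0 and 7, 4 with the rlog values and 5 without the 2 doubted day 21 libraries, settings that call 4.95%, 2.88%, 7.46%, 3.79% and 6.9% of all genes (1.76% in the 12-library fit). For the genotype difference in the day 7 change (2 in that fit) it was 4, 5, 5, 4 and 5 in that order (18.3%, 24.8%, 24.8%, 14.3% and 22.8% of all genes), 1 with median-of-ratios size factors (13.3%), 0 with limma on unfiltered TPM (5%) and 0 at a minimum log2 fold change of 1 (6.89%). Leaving out single libraries, with the share of all genes called in brackets, gave 0 to 1 at day 7 (0.0909% to 3.76%), 0 to 3 for the difference in change (3.52% to 17.3%), 1 to 6 at day 0 (10.1% to 31.4%), 8 to 9 for the fall in wild type (31.4% to 48.4%) and in knockout (33.4% to 48.4%), 5 to 9 for day 21 against day 0 (35.1% to 44.7%), 10 for day 21 against day 7 (48.7% to 54.6%) and 0 for day 21 by label (0% to 5.24%, and 3 members and 7.29% without both doubted libraries). The lowest count and share at day 0 are both those without knockout replicate 2 of that day. Limma on unfiltered TPM gave 2 at day 0 (14.2%) and 2 for day 21 against day 0 (27.4%). At a minimum log2 fold change of 1 the counts were 0 at day 0 (9.41%), 3 for the fall in wild type (23.1%), 0 for day 21 against day 0 (11%) and 5 for day 21 against day 7 (20.3%).

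Replicate numbers did not pair the libraries (correlations of the deviations of same-numbered libraries 0.0412, -0.143 and 0.07 at days 0, 7 and 21). With the replicate block the count was 1 for the difference in change (11.3% of all genes, against 2 and 13.5% without it), and no other count moved by over 1.5 times. The crossed pairing at day 7 called 0 members and 1.98% of all genes.

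Signs turned in values near 0, mostly for day 21 by label. Atf3 there was -0.00145 with DESeq2, -0.00144 with its size factors, -0.00375 with no filter and -0.0222 without both doubted libraries, and -0.0284 to 0.0452 with 1 library left out. Ier2 was 0.00591 with limma on TPM, 0.00594 with the smaller pseudocount and 0.00591 unfiltered. Nr4a1 was 0.0404 in each of these 3 fits and 0.00390 with rlog. With 1 library left out the range was -0.18 to 0.12 for Ier2, -0.10 to 0.10 for Nr4a1, -0.21 to 0.0709 for Fos, -0.0268 to 0.19 for Junb, -0.31 to 0.11 for Jund and -0.30 to 0.21 for Egr1, and at day 7 -0.18 to 0.0328 for Jun. For Fosb the difference in change was 0.0319 with rlog and -0.25 to 0.0240 with 1 library left out. The causes were not tested. Over all genes the calls ranged from 1495 to 7317 at day 0, 15 to 1169 at day 7, 0 to 1200 at day 21 by label, 582 to 3887 for the difference in change, 3665 to 9035 and 3709 to 8498 for the fall in wild type and knockout, 1742 to 8140 for day 21 against day 0 and 3224 to 9700 for day 21 against day 7.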
